A study of Homo sapiens with 6 samples.

Results

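The zinc finger genes of chromosome 19 were described across RAVER1 knockout and parental A549 cells. Members were the protein-coding rows of chromosome 19 whose symbol is ZNF or ZFP followed by a number. This gave 252 of the 60624 genes in the table. The rule uses no measured value, but it was chosen with earlier results of these data known. A549 is a human lung adenocarcinoma line, and RAVER1 is an RNA-binding protein that works with the splicing repressor PTBP1. PolyA RNA was sequenced from 3 libraries of A549 cells with a CRISPR/Cas9 deletion of RAVER1 and from 3 libraries of parental A549 cells labelled wild type, with no other treatment named for either group. The 3 knockout libraries share the label KO2, and the labels do not say whether that is 1 clone, so p-values speak to the variation among these libraries, which need not cover that of separate knockout lines.

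Most zinc finger genes of chromosome 19 lie in tandem clusters that grew by gene duplication. A C2H2 zinc finger is a short fold that holds a zinc ion with paired cysteines and histidines, and arrays of such fingers read DNA sequence. Many members also carry a KRAB domain, which binds the corepressor TRIM28. TRIM28 in turn brings histone methyltransferases, histone deacetylases and heterochromatin proteins to the bound site. Transposable elements and other repeats are the best known targets of KRAB zinc finger proteins.

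Between 29811747 and 39910127 reads were counted per library. RAVER1 itself, which also lies on chromosome 19, had 110, 112 and 79 counts in the knockout libraries, against 2510, 1996 and 2285 counts in the parental libraries. That is 2.74 ± 0.165 CPM (counts scaled to a common library size, as in all levels given here) in knockout cells and 69.8 ± 3.80 CPM in parental cells (SD, n = 3 each). The log2 fold change was -4.67 (SE 0.0786, edgeR quasi-likelihood adjusted p = 1.24e-18). All 3 knockout libraries were far below all 3 parental libraries. All 6 epithelial markers were detected in every library, with summed levels of 6417 to 7095 CPM in knockout libraries against 8480 to 9335 CPM in parental libraries. The 5 fibroblast markers summed to 64.3 to 68.7 CPM in knockout libraries and 46.9 to 49.8 CPM in parental libraries, with DCN at 0. The 5 leukocyte markers summed to 3.90 to 5.20 CPM in knockout libraries and 5.11 to 5.79 CPM in parental libraries, with CD3E at 0, and 0 of 4 endothelial markers were found in all 6 libraries. The part of these marker differences in the results below was not tested. In bulk RNA, fewer cells that express a gene and less RNA per cell cannot be told apart.

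Zinc finger genes of chromosome 19 leaned towards higher RNA in knockout cells. Of the 174 members with enough reads to test, 54 were higher in knockout cells (31.0%) and 9 were lower (5.17%) at an adjusted p under 0.05 in edgeR, while 111 did not pass. Over all 16652 tested genes the shares were 21.3% higher and 20.1% lower, 41.4% in all, and over the 12931 tested protein-coding genes they were 24.5% higher and 22.1% lower. The share of members called in either direction was 36.2%, below the 46.7% of protein-coding genes. The median log2 fold change of the tested members was 0.15 (quartiles -0.05 and 0.37), with 117 of 174 positive, beside a median of 0.01 over protein-coding genes. Summed over all 252 members, the level was 1689, 1755 and 1789 CPM in the knockout libraries, against 1602, 1660 and 1682 CPM in the parental libraries. The groups did not overlap in this sum, but the lowest knockout library lay close to the highest parental library.

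The same counts were taken in 2 related sets of genes. Of 275 zinc finger genes with the same kind of symbol on other chromosomes, 236 were tested, and 32 were higher and 37 lower, with a median log2 fold change of 0.001. Of 1219 other protein-coding genes of chromosome 19, 761 were tested, and 129 were higher and 191 lower, with a median of -0.03. These counts and medians describe the lists, and the difference between the lists was not tested.

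**Figure D1:**
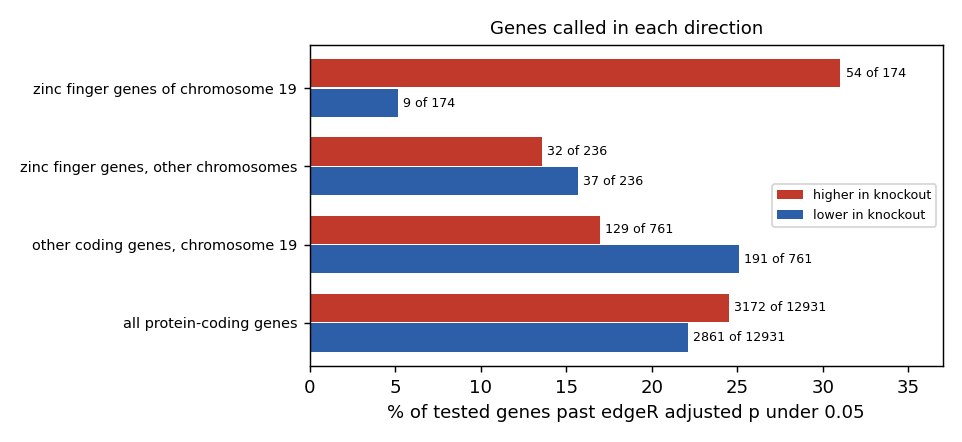
Share of tested genes called higher (red) or lower (blue) in knockout cells by edgeR at an adjusted p under 0.05, in percent, for 4 sets of genes, with the number called and tested beside each bar. Zinc finger genes of chromosome 19 had 54 higher and 9 lower of 174, while the zinc finger genes of other chromosomes had 32 higher and 37 lower of 236.

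Members were mostly genes of low abundance. With the threshold set at a mean of 0.5 CPM in either group, 169 of 252 members (67.1%) were expressed, and 83 were not. Only 48 members reached 10 CPM in either group. Levels per kilobase used the gene length deposited with the counts. The median level of the 169 expressed members was 0.939 CPM per kilobase, against 4.58 CPM per kilobase for tested protein-coding genes. The tested members comprised the 169 expressed genes and 5 others, and the 78 untested members had at most 58 counts over the 6 libraries together. A member that is low in one group could enter the test through the other group alone, so the counts among tested members carry that selection.

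The most abundant member was ZNF146, a protein of fingers without a KRAB domain, at 109.4 ± 10.3 CPM in knockout cells and 114.4 ± 10.6 CPM in parental cells. Its groups overlapped, and its log2 fold change of -0.06 (SE 0.0672, edgeR adjusted p = 0.487) changed sign when knockout replicate 1 or parental replicate 2 was left out (0.01 and 0.0003). ZNF787 followed at 85.6 ± 3.18 CPM in knockout cells and 71.5 ± 2.23 CPM in parental cells, a log2 fold change of 0.26 (SE 0.0481, edgeR adjusted p = 2.51e-04) with no overlap. ZNF574 rose by 0.18 (log2; edgeR adjusted p = 0.0132) to 83.3 ± 5.44 CPM in knockout cells, against 73.5 ± 3.93 CPM in parental cells, a call that was lost without parental replicate 2 (adjusted p = 0.0771). ZNF526 (51.1 CPM in knockout cells and 48.3 CPM in parental cells) and ZNF428 (44.1 CPM in knockout cells and 47.6 CPM in parental cells) did not pass the test. Per kilobase of deposited gene length, ZNF428 ranked first, at 28.4 CPM per kilobase in knockout cells and 30.6 CPM per kilobase in parental cells. ZNF146 came next, at 26.4 CPM per kilobase in knockout cells and 27.6 CPM per kilobase in parental cells. None of these 5 proteins has a KRAB match.

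**Figure D2:**
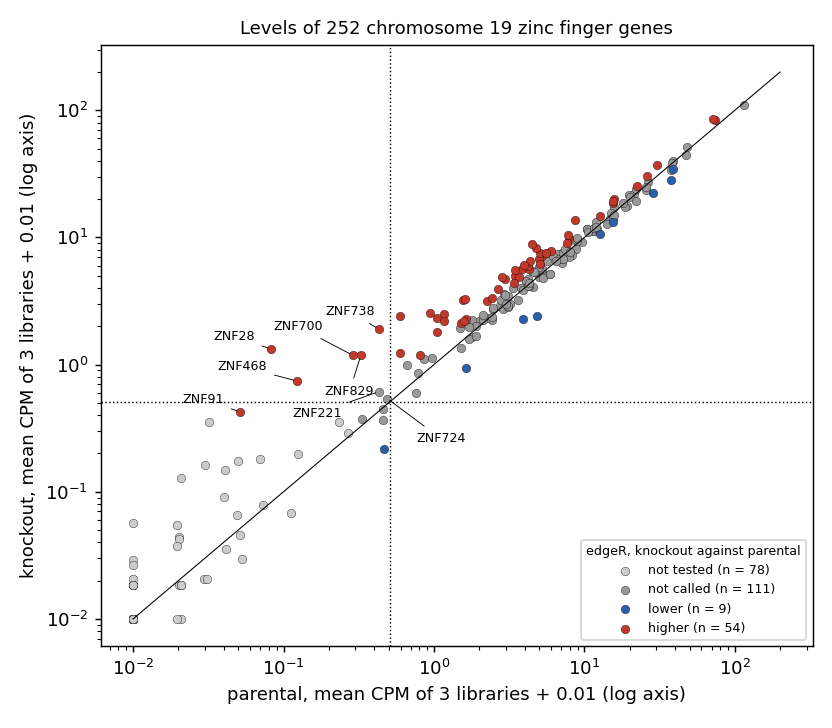
Mean CPM over 3 libraries of each of the 252 members, knockout on the vertical and parental on the horizontal axis, both log scales after adding 0.01 CPM, with the edgeR call as colour and dotted lines at the 0.5 CPM threshold. The genes farthest above the diagonal, such as ZNF28 at 1.32 CPM in knockout and 0.0729 CPM in parental cells, lie at the low end, and the genes above 50 CPM lie near the diagonal.

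A few members were over the threshold in knockout cells and not in parental cells. At 0.5 CPM, 162 members were expressed in both and 83 in neither, 7 reached 0.5 CPM in knockout cells and not in parental cells, and 0 did so in parental cells and not in knockout cells. The 7 were ZNF28, ZNF468, ZNF700, ZNF738, ZNF829, ZNF221 and ZNF724. The share of all genes that crossed 0.5 CPM in each direction is not given here, so these counts describe the members only. More members crossed in knockout cells at each threshold tried, but whether any crossed in parental cells depended on the threshold. At 1 CPM, 10 members crossed in knockout cells and 1 in parental cells (ZNF554, at 0.937 CPM in knockout and 1.62 CPM in parental cells), and at 0.25 CPM, 5 crossed in knockout cells and 1 in parental cells (ZNF671, at 0.206 CPM in knockout and 0.456 CPM in parental cells). At 0.5 CPM, 1 member was over the threshold in parental cells alone when parental replicate 1 or parental replicate 2 was left out. Only ZNF28 was also at or under 0.1 CPM in the other group, the level set for calling a gene on in 1 group only. The floor of 3 counts corresponds to 0.0753 to 0.0987 CPM per library, so levels near 0.1 CPM rest on a handful of reads.

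ZNF28 was the member with the largest rise. It had 55, 44 and 44 counts in the knockout libraries, against 2, 3 and 2 counts in the parental libraries. Every knockout library lay far above every parental library, at 1.32 ± 0.181 CPM in knockout cells and 0.0729 ± 0.0225 CPM in parental cells (SD, n = 3 each). Its log2 fold change was 4.12 (SE 0.361, edgeR adjusted p = 2.61e-08). From the summed counts of 143 and 7, the knockout to parental ratio was 18.1, with a 95% exact interval of 8.57 to 45.9 that covers counting error only. ZNF28 is a KRAB protein with 15 fingers, at chr19:52797409-52857600 on the minus strand.

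ZNF468 lies beside it on the same strand, with gene bodies that overlap over 19593 bases and with shared exons. It had 25, 36 and 20 counts in the knockout libraries, against 3, 3 and 5 counts in the parental libraries, a log2 fold change of 2.67 (SE 0.378, edgeR adjusted p = 1.30e-05). All knockout libraries lay above all parental libraries, as for ZNF28. How reads in the shared exons were assigned is not given in the sources used here, so the separate levels of the pair are uncertain. Of the 50-base words in ZNF468 exons, 55.8% occur in another gene, most often ZNF320, which had 0, 1 and 0 counts in the knockout libraries and 0, 1 and 0 counts in the parental libraries. For ZNF28 the share was 7.3%. The overlap and these shares use GENCODE exons, which gave 11387 words for ZNF468, while its deposited gene length is 5279 bases. For ZNF468 as counted, the overlap and the share may therefore differ.

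ZNF738 had 67, 79 and 60 counts in the knockout libraries, against 16, 14 and 11 counts in the parental libraries, and its log2 fold change was 2.15 (SE 0.222, edgeR adjusted p = 2.44e-07). ZNF738 has a KRAB match among its coding sequences, and its longest coding sequence has no finger match. ZNF700 had 44, 43 and 40 counts in the knockout libraries, against 6, 9 and 12 counts in the parental libraries, a log2 fold change of 2.05 (SE 0.286, edgeR adjusted p = 1.06e-05). In both genes the lowest knockout library was well above the highest parental library. For ZNF700, 18.1% of its 50-base words occur in other genes.

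ZNF829 and ZNF568 start 38 bases apart and run in opposite directions, and both rose. ZNF829 had 27, 57 and 43 counts in the knockout libraries, against 12, 7 and 12 counts in the parental libraries, a log2 fold change of 1.86 (SE 0.328, edgeR adjusted p = 1.49e-04). ZNF568 had 94, 102 and 70 counts in the knockout libraries, against 22, 20 and 15 counts in the parental libraries, a log2 fold change of 2.04 (SE 0.199, edgeR adjusted p = 1.11e-07). The groups did not overlap for either gene, although the lowest ZNF829 knockout library was well below the other 2. ZNF568 was expressed in both groups, at 2.42 ± 0.155 CPM in knockout cells and 0.587 ± 0.109 CPM in parental cells, and its mouse relative Zfp568 is known as a repressor of a placental Igf2 transcript.

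The other 2 genes that crossed the threshold did not pass the test. ZNF221 averaged 0.603 CPM in knockout cells and 0.422 CPM in parental cells (edgeR adjusted p = 0.152). ZNF724 averaged 0.531 CPM in knockout cells and 0.478 CPM in parental cells with overlapping groups (edgeR adjusted p = 0.679), and 48.3% of its 50-base words occur in other genes. ZNF221 lay close to the threshold in parental cells, and ZNF724 lay close to it in both groups.

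ZNF91, a KRAB protein with 32 fingers that represses SVA retrotransposons in human cells, rose without reaching the threshold. It had 20, 16 and 10 counts in the knockout libraries, against 0, 1 and 3 counts in the parental libraries, and its log2 fold change was 3.24 (SE 0.585, edgeR adjusted p = 1.84e-04). The ratio of summed counts was 10.2, with a 95% exact interval of 3.73 to 39.0. At 0.414 CPM in knockout cells and 0.0417 CPM in parental cells, it counts as not expressed in either group. Other members just under the threshold were ZNF671, which is lower in knockout cells (0.206 CPM in knockout and 0.456 CPM in parental cells), ZNF233 (0.434 CPM in knockout and 0.449 CPM in parental cells) and ZNF223 (0.360 CPM in knockout and 0.451 CPM in parental cells).

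**Figure D3:**
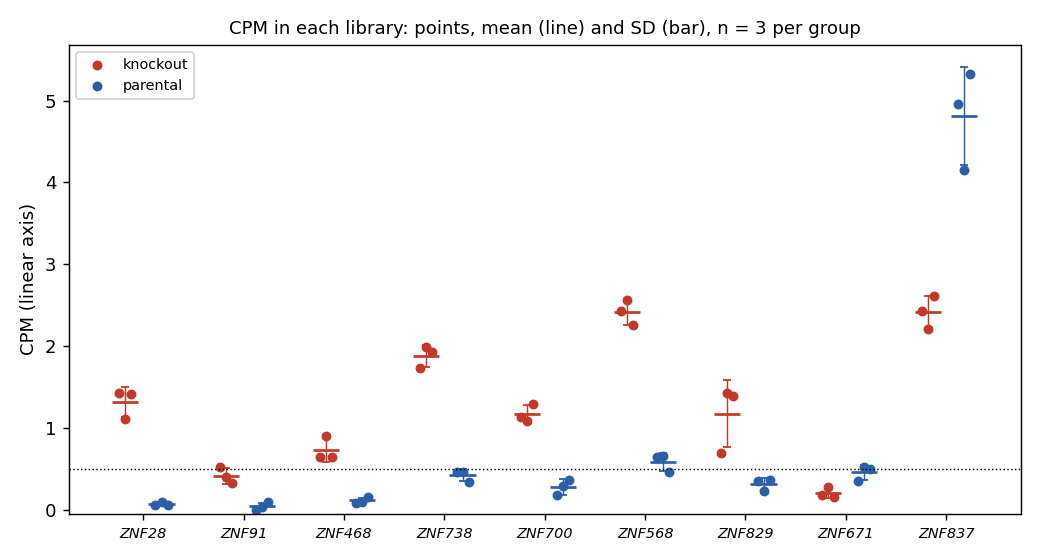
CPM of 9 members in each library on a linear axis, knockout in red to the left of parental in blue, with the mean (horizontal line) and SD (bar) of 3 libraries per group and a dotted line at 0.5 CPM. The genes shown are the largest called rises and falls, so separation of the groups follows largely from that choice. For all 9 genes the 3 knockout points and the 3 parental points do not overlap, with ZNF671 and ZNF837 lower in knockout cells and the other 7 higher. The share of all genes without overlap is not given here.

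Promoter sequences, from 250 bases before to 50 bases after the annotated start, were taken from RefSeq on GRCh38.p14 and matched 219 of the 252 members. They are shown for the head to head pair, the overlapping pair, ZNF91 and a member at 0 counts in every library, since these are the genes whose on or off state is described here. Capitals mark CG, the pair of letters at which human DNA is methylated, which reads the same on both strands. The ZNF568 window is chr19:36916082-36916381 on the plus strand, holds 25 CG and also covers the annotated start of ZNF829. The ZNF468 window is chr19:52857570-52857869 on the minus strand, holds 30 CG and covers the annotated 5′ end of ZNF28. In GENCODE the 5′ end of ZNF468 itself is at base 52890375, outside this window. The ZNF91 window is chr19:23395422-23395721 on the minus strand and holds 11 CG, and the ZNF667 window is chr19:56477296-56477595 on the minus strand and holds 42 CG.
ZNF568: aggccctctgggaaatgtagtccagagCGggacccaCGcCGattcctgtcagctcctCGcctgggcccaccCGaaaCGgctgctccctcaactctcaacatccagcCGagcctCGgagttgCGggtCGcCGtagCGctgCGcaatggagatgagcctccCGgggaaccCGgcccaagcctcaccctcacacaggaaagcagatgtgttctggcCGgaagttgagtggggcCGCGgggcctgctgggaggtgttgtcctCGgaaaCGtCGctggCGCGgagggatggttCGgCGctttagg
ZNF468: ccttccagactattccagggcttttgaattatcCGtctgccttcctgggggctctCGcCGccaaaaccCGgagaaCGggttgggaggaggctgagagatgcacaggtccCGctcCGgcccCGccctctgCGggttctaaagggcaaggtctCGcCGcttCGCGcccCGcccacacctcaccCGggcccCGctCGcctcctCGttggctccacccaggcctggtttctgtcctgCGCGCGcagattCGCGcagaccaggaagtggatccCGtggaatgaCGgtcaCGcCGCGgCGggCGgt
ZNF91: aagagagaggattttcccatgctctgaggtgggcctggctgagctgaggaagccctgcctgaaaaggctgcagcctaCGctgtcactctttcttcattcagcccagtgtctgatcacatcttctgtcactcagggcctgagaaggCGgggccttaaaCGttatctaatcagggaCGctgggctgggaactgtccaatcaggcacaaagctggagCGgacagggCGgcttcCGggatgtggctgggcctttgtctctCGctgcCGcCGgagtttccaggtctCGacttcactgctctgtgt
ZNF667: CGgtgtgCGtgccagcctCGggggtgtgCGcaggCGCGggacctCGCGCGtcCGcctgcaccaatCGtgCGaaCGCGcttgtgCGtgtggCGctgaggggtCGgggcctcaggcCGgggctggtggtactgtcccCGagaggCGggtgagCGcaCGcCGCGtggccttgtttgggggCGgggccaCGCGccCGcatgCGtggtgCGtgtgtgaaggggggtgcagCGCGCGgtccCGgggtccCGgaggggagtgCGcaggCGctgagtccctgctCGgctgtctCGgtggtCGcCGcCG

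Member promoter windows were seldom poor in CG. At least 1 CG was present in 96.0% of all 35116 RefSeq promoter windows and in 100% of the member windows, and 20 or more CG were present in 41.2% of all windows and 54.3% of member windows. The median was 22 CG in the 153 expressed members with a window and 16 CG in the 66 that were not expressed. Fewer than 10 CG were found in 2 of the 153 (1.31%) and in 12 of the 66 (18.2%), against 43.6% of all RefSeq windows. The set of all windows was not limited to protein-coding genes, while every member is one. The part of that difference in these shares was not tested. ZNF667 combined 42 CG with a count of 0 in all 6 libraries. Among tested members the median was 23 CG in those that were higher, 34 CG in those that were lower and 20 CG in those not called. Methylation was not measured in these samples.

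The 83 members that were not expressed were unevenly spread over the chromosome. Of these, 40 had 0 counts in all 6 libraries, and 68 members averaged under 0.1 CPM in both groups. Members were grouped into runs wherever neighbouring starts were at most 500000 bases apart, which gave 21 runs, numbered here from the short arm end. Of the 21, 8 were single genes, and 10 had at least 5 members and together held 237. Run 6, from ZNF101 to ZNF254 at chr19:19668796-24129961, had 25 of 37 members not expressed, and run 4, from ZNF653 to ZNF791 at chr19:11483427-12640098, had 15 of 25. Run 21, from ZNF264 to ZNF446 at chr19:57191500-58481230, had 5 of 43 members not expressed (ZNF154, ZNF671, ZNF418, ZNF135 and ZNF132).

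In run 6, 15 genes were at 0 in every library, namely ZNF682, ZNF90, ZNF486, ZNF626, ZNF429, ZNF208, ZNF257, ZNF676, ZNF729, ZNF98, ZNF492, ZNF99, ZNF723, ZNF728 and ZNF730. In run 4, 13 were at 0, namely ZNF441, ZNF491, ZNF440, ZNF439, ZNF69, ZNF763, ZNF433, ZNF878, ZNF844, ZNF20, ZNF625, ZNF563 and ZNF442. Run 19 had 7 at 0, namely ZNF528, ZNF600, ZNF816, ZNF415, ZNF347, ZNF665 and ZNF677. The remaining 5 were ZNF177, ZNF560, ZNF536, ZNF667 and ZNF835. Near-identical members can lose reads that fit several genes, so a count of 0 shows only that no read was assigned to the gene. These genes differ in how much sequence they share. Of their 50-base words, 86.8% in ZNF177 and 81.3% in ZNF625 occur in another gene, against 0.0% in ZNF560 and ZNF667. The part of shared sequence in the counts of 0 was not tested.

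The 78 untested members held few reads in either group. Their summed level was 2.04, 2.87 and 2.84 CPM in the knockout libraries, against 1.37, 1.42 and 1.02 CPM in the parental libraries, with no overlap. Of the 78, 27 had the higher mean in knockout cells, 11 had it in parental cells and 40 were at 0. Some of these means rest on 1 or 2 counts over all 6 libraries. Examples are ZNF737 (1) and ZNF253 (2) in knockout cells and ZNF709 (1) in parental cells. The share over all untested genes is not given here, so no direction is read from these numbers. ZNF808, named here after its values were seen, had 5, 14 and 17 counts in the knockout libraries, against 0, 2 and 0 counts in the parental libraries. ZNF93, which represses L1 retrotransposons, had 1 count in 1 knockout library and 0 in the other 5 libraries. ZNF382, a KRAB member, had 2, 1 and 4 counts in the knockout libraries and 2, 3 and 1 counts in the parental libraries, with overlapping groups.

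The largest numbers of rises were in runs 10 and 19, beside 21.3% higher and 20.1% lower over all tested genes. Run 19, from ZNF175 to ZNF331 at chr19:51571298-53580269, holds ZNF28 and ZNF468, and of its 39 members 19 were tested, 11 of them higher and 0 lower, with a median log2 fold change of 0.48. Run 10, from ZNF565 to ZNF573 at chr19:36182060-37817300, holds ZNF829 and ZNF568, and of its 30 members 24 were tested, 12 of them higher and 0 lower, with a median of 0.28. Among the other genes inside run 19, 1 of 9 tested was higher and 0 were lower, with a median of 0.10. Among the other genes inside run 10, 3 of 7 were higher and 0 were lower, with a median of 0.16. The higher ones include ZNF529-AS1 and ZNF790-AS1, RNAs antisense to members of the run.

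In run 19 the called genes were ZNF28, ZNF468, ZNF841, ZNF160, ZNF761, ZNF331, ZNF845, ZNF615, ZNF616, ZNF350 and ZNF614. ZNF841 had 92, 107 and 79 counts in the knockout libraries, against 22, 36 and 31 counts in the parental libraries, a log2 fold change of 1.46 (SE 0.197, edgeR adjusted p = 6.77e-06). ZNF160 had 308, 372 and 284 counts in the knockout libraries, against 144, 141 and 150 counts in the parental libraries, a log2 fold change of 0.98 (SE 0.103, edgeR adjusted p = 3.10e-07). Neither gene's groups overlapped. ZNF331, a gene with parent-of-origin expression in several human tissues, rose by 0.65 (log2, SE 0.0991, edgeR adjusted p = 2.96e-05) to 13.6 ± 1.57 CPM in knockout cells, against 8.65 ± 0.987 CPM in parental cells. ZNF350, known as ZBRK1 and as a partner of BRCA1, rose by 0.48 (log2, edgeR adjusted p = 0.0206), a call that was lost in 3 of the 6 fits that leave out a library and in DESeq2 (adjusted p = 0.0531).

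The other 8 tested members of the run did not pass the test. Their log2 fold changes were 0.30 for ZNF432, which shares exons with ZNF841 on the same strand, 0.23 for ZNF175, 0.22 for ZNF613, 0.16 for ZNF836, 0.04 for ZNF480, -0.03 for ZNF765, -0.11 for ZNF611 and -0.14 for ZNF766.

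In run 10 the called genes besides ZNF829 and ZNF568 were ZFP82, ZNF585A, ZNF607, ZNF420, ZNF850, ZNF585B, ZNF529, ZFP30, ZNF569 and ZNF383. ZFP82 had 111, 127 and 112 counts in the knockout libraries, against 45, 46 and 60 counts in the parental libraries, a log2 fold change of 1.04 (SE 0.162, edgeR adjusted p = 3.75e-05). ZFP30 rose by 0.42 (log2, edgeR adjusted p = 0.00293), while ZFP14, at 7.39 CPM in knockout and 6.56 CPM in parental cells, did not pass (0.17, edgeR adjusted p = 0.203). ZNF383 was the least stable of them, since its call was lost in 5 of the 6 fits without 1 library (adjusted p up to 0.191). ZNF146 lies in this run too.

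The remaining runs held fewer higher genes. Over all tested genes 21.3% were higher and 20.1% lower. Of the runs listed here, runs 1, 6, 14 and 21 had smaller shares of higher genes than that. Run 3 had 4 higher of 11 tested (median 0.20), run 9 had 3 of 5 (median 0.27), run 4 had 3 of 10 (median 0.03), run 14 had 3 of 22 (median 0.09) and run 6 had 2 of 13 (median 0.08), each with 0 lower. Run 20 had 6 higher and 2 lower of 14 (median 0.05), run 21 had 6 higher and 5 lower of 39 (median 0.04), and run 1 had 0 higher and 1 lower of 4 (median -0.03). Medians were above 0 in 9 of the 10 runs with at least 5 members. ZNF426 in run 3, at 2.30 ± 0.609 CPM in knockout cells and 1.04 ± 0.155 CPM in parental cells, had a log2 fold change of 1.16 (edgeR adjusted p = 2.68e-04). ZNF44 in run 4, at 2.51 ± 0.319 CPM in knockout cells and 1.15 ± 0.291 CPM in parental cells, had 1.11 (edgeR adjusted p = 1.03e-04). In run 20, ZFP28 rose by 0.60 (log2, edgeR adjusted p = 1.88e-04), and ZNF582 and ZNF583, whose starts are 4421 bases apart, rose by 1.05 and 1.02.

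Other members with known roles moved less. ZFP36, which is tristetraprolin, has CCCH fingers and no C2H2 match, and promotes mRNA decay, rose to 19.9 ± 2.64 CPM in knockout cells, against 15.8 ± 0.273 CPM in parental cells (log2 fold change 0.33, edgeR adjusted p = 0.00422). ZNF274, which recruits the histone methyltransferase SETDB1 to the ends of zinc finger genes, averaged 23.5 ± 1.01 CPM in knockout cells and 25.5 ± 0.479 CPM in parental cells (-0.12, edgeR adjusted p = 0.125). Its groups did not overlap, and it passed with the replicate number as a block (adjusted p = 0.0456) and with GC offsets (adjusted p = 0.0477). ZNF224, a KRAB repressor of the aldolase A gene, averaged 7.95 CPM in knockout cells and 7.64 CPM in parental cells with overlapping groups (0.06, edgeR adjusted p = 0.653).

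The 9 members that fell were ZNF671, ZNF837, ZNF554, ZNF497, ZNF580, ZNF358, ZNF324B, ZNF324 and ZNF865, against a background of 20.1% lower calls over all tested genes. ZNF837 had 94, 88 and 81 counts in the knockout libraries, against 170, 126 and 173 counts in the parental libraries, a log2 fold change of -1.001 (SE 0.134, edgeR adjusted p = 6.33e-06). ZNF497, in the same run and on the same strand, averaged 2.26 ± 0.245 CPM in knockout cells and 3.92 ± 0.362 CPM in parental cells (-0.79, edgeR adjusted p = 1.32e-04). For both genes all knockout libraries lay below all parental libraries. ZNF671, which is often silenced by methylation in tumours, had 7, 11 and 5 counts in the knockout libraries, against 12, 16 and 16 counts in the parental libraries. Its log2 fold change of -1.10 (SE 0.362, edgeR adjusted p = 0.0204) lost its call in 4 of the 6 fits that leave out a library, with adjusted p up to 0.0806, and in DESeq2 (adjusted p = 0.102).

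ZNF554 fell to 0.937 ± 0.312 CPM in knockout cells, against 1.62 ± 0.0410 CPM in parental cells (-0.80, edgeR adjusted p = 0.00788), and this call was lost without knockout replicate 2 (adjusted p = 0.0569). ZNF580 fell to 28.4 ± 1.02 CPM in knockout cells, against 37.9 ± 1.84 CPM in parental cells (-0.42, edgeR adjusted p = 1.31e-05). Its neighbour ZNF581 shares exons with it on the same strand and rose to 30.5 ± 0.749 CPM in knockout cells, against 26.2 ± 2.17 CPM in parental cells (0.22, edgeR adjusted p = 0.0120), so the split of reads between them is uncertain. ZNF358 fell by 0.34, ZNF324B by 0.25, ZNF324 by 0.24 and ZNF865 by 0.18 on the log2 scale. The calls of ZNF324B and ZNF865 were lost in 3 of the 6 fits without 1 library, with adjusted p up to 0.0812 and 0.247. The call of ZNF324 was lost without knockout replicate 3 (adjusted p = 0.0953) and without parental replicate 1 (adjusted p = 0.0870).

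Size and certainty varied among the 54 higher members. Their fold changes ran from 1.13 to 17.3 with a median of 1.44, and 13 of them were at least 2-fold (ZNF28, ZNF91, ZNF468, ZNF738, ZNF700, ZNF568, ZNF829, ZNF841, ZNF426, ZNF44, ZNF582, ZFP82 and ZNF583). Of the 9 lower members, ZNF671 and ZNF837 were at least 2-fold lower. Over tested protein-coding genes, 3.19% were higher and 3.85% were lower by at least 2-fold. Of the 13, 9 had a parental mean under 1 CPM, as had 10 of all 54 higher members and 1 of the 9 lower members. Genes low in parental cells can enter the test through the knockout libraries alone. A low parental mean is thus partly built into the choice of large rises, and this count describes the 13 only. Of the 54 higher calls, 38 held in every fit that left out 1 library, as did 4 of the 9 lower calls.

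Zinc finger members differ in protein structure, which was read from annotated coding sequences. Fingers were counted in the longest coding sequence of a gene, and a KRAB match could come from any of its coding sequences. A KRAB A box was matched in 176 of 252 members with the motif stated first, and in 196 with a looser motif added after that motif was found to miss the ZNF224 family of run 14. Fingers numbered 0 to 39 per protein, with a median of 12.5. By the motif stated first, 113 tested members with KRAB had 40 higher and 4 lower (median log2 fold change 0.19), and 61 without it had 14 higher and 5 lower (median 0.05). By the looser motif, 132 tested members with KRAB had 44 higher and 4 lower (median log2 fold change 0.17), and 42 without it had 10 higher and 5 lower (median 0.04). Of the 13 members that rose at least 2-fold, 12 had the first KRAB match and all 13 the looser one, ZNF700 being the difference. Members with at least 16 fingers had 19 higher and 1 lower of 42 tested (median 0.29), those with 11 to 15 had 20 and 1 of 72 (0.17), those with 7 to 10 had 11 and 6 of 42 (0.05), and those with 0 to 6 had 4 and 1 of 18 (-0.06). In that order the shares of higher calls were 45.2%, 27.8%, 26.2% and 22.2%. They were 35.4% with the first KRAB match and 22.95% without it. Over tested protein-coding genes 24.5% were higher and 22.1% lower. Median GC content was 41.0% with at least 16 fingers and 59.2% with 0 to 6. The part of GC content in these differences was not tested.

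Transcript base composition moved with these fold changes. Median GC content was 41.8% in members that were higher, 61.7% in those that were lower and 43.3% in those not called. Under 42% GC, 28 of 72 tested members were higher and 0 were lower (median 0.20), while among other protein-coding genes in that range 819 of 3108 were higher and 466 lower (median 0.04). From 42% to 46% GC, 17 of 48 members were higher and 0 lower (median 0.18), against 495 higher and 452 lower of 2004 other genes (median -0.001). From 46% to 50% GC, 3 of 22 members (13.6%) were higher and 1 lower (median 0.04), against 24.7% higher and 23.6% lower of 1684 other genes. From 50% to 55% GC, 1 of 9 members (11.1%) was higher and 1 lower (median -0.09), against 24.1% higher and 24.9% lower of 1973 other genes. At 55% GC or more, 5 of 23 members were higher and 7 lower (median -0.09), against 911 higher and 1045 lower of 3981 other genes (median -0.02). With offsets for GC content in the fit, 53 members were higher and 12 lower, and 53 of the 54 higher calls and 8 of the 9 lower calls were kept.

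**Figure D4:**
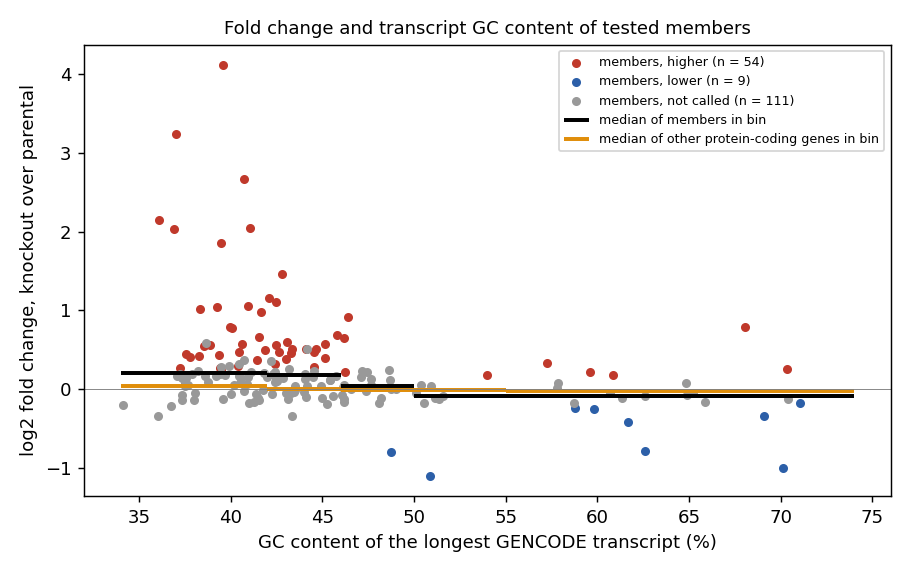
Log2 fold change, knockout over parental, of the 174 tested members against the GC content in percent of the longest transcript, with the edgeR call as colour, black lines for the median of members and orange lines for the median of other protein-coding genes in each GC range. Most red points lie under 47% GC, where the member median of 0.20 (under 42% GC) is above the 0.04 of other genes, and 7 of the 9 blue points lie above 55%.

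Abundance and sequence sharing were compared in the same way. Between 1 and 5 CPM, 24 of 68 tested members were higher and 3 lower (median 0.20), against 324 higher and 425 lower of 1642 protein-coding genes (median -0.04). Between 5 and 20 CPM, 18 of 67 members (26.9%) were higher and 2 lower (median 0.11), against 23.2% higher and 23.4% lower of 3064 protein-coding genes. At 20 CPM or more, 5 of 22 members (22.7%) were higher and 3 lower (median 0.04), a share of higher calls below the 27.3% of 7181 protein-coding genes, of which 21.2% were lower. Under 1 CPM, 7 of 17 tested members were higher and 1 lower (median 0.51), against 180 higher and 196 lower of 1044 protein-coding genes (median 0.02). A median of 2.55% of a member's 50-base words occurred in another gene. Members with under 5% shared words had 40 higher and 4 lower of 120 tested (median 0.15), and members with 5% or more had 14 higher and 5 lower of 54 (median 0.12).

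Other rows of chromosome 19 named for zinc finger genes numbered 35, of which 15 were long noncoding RNAs, 17 were pseudogenes and 3 were protein-coding genes whose symbols join a pair of gene names. Of the 35, 5 were tested, and 3 were higher and 0 lower. ZNF790-AS1, an RNA antisense to ZNF790 in run 10, had 18, 20 and 24 counts in the knockout libraries, against 2, 4 and 2 counts in the parental libraries, a log2 fold change of 2.74 (SE 0.447, edgeR adjusted p = 6.42e-05). ZNF790 itself had 4, 9 and 4 counts in the knockout libraries, against 1, 0 and 1 counts in the parental libraries, and was too low to test. The strand setting of the counting is not given in the sources used here, so reads of ZNF790 and its antisense partner cannot be told apart. ZNF542P, a pseudogene, had 104, 105 and 86 counts in the knockout libraries, against 30, 21 and 17 counts in the parental libraries (1.94, edgeR adjusted p = 1.44e-07), and ZNF529-AS1 rose by 0.70 (log2, edgeR adjusted p = 0.00115). These 3 were named after their values were seen.

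Corepressor and heterochromatin genes through which KRAB proteins act were taken as a list of 35, all tested. Of these, 2 (5.71%) were higher and 8 (22.9%) lower in knockout cells, against 21.3% higher and 20.1% lower over all tested genes, with a median log2 fold change of 0.003. The count of higher genes was 7 with the replicate number as a block and 1 to 7 when 1 library was left out (7 without knockout replicate 1, and 1 without knockout replicate 3, parental replicate 1 or parental replicate 3), and it was 4 with GC offsets. TRIM28, the KRAB corepressor, which also lies on chromosome 19, had 1227, 1159 and 1203 CPM in the knockout libraries, against 1208, 1109 and 1171 CPM in the parental libraries (0.04, edgeR adjusted p = 0.470), with overlapping groups. SETDB1, the histone methyltransferase that TRIM28 recruits, had 43.6, 41.9 and 40.6 CPM in the knockout libraries, against 45.5, 46.2 and 46.7 CPM in the parental libraries. Its groups did not overlap, and its log2 fold change of -0.13 missed the threshold (edgeR adjusted p = 0.0523) and passed under 7 alternatives, with adjusted p of 0.0112 with the replicate number as a block.

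CBX5, a heterochromatin protein, had 263.9, 289.4 and 286.3 CPM in the knockout libraries, against 350.2, 390.0 and 371.7 CPM in the parental libraries (-0.41, edgeR adjusted p = 1.18e-06). CHD3, a remodeller of the NuRD complex, had 335.8, 324.7 and 332.3 CPM in the knockout libraries, against 410.6, 431.7 and 415.8 CPM in the parental libraries (-0.34, edgeR adjusted p = 9.18e-07). HDAC1, a histone deacetylase, fell by 0.22 on the log2 scale (edgeR adjusted p = 4.68e-04). DNMT3A, a DNA methyltransferase that sets new methylation, had 29.6, 28.5 and 28.4 CPM in the knockout libraries, against 22.3, 21.1 and 20.4 CPM in the parental libraries (0.44, edgeR adjusted p = 1.04e-05). For CBX5, CHD3 and DNMT3A the groups did not overlap. MORC3, the other gene that rose, lost its call in 3 of the 6 fits without 1 library, with adjusted p up to 0.109.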

How the data were processed

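PolyA RNA libraries of A549 cells were made with a stranded mRNA kit, per the labels' protocols. Reads were trimmed with cutadapt 2.8, aligned to hg38 with HISAT2 2.1.0, handled with SAMtools 1.10 and counted with featureCounts 2.0.0, as listed in the submitters' processing notes. Values in the deposited table are raw read counts, 1 per gene and library, not normalized. Neither the strand setting nor the handling of multi-mapping reads is given in the sources used here.

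Groups and replicate numbers came from the titles. Log2 fold changes came from edgeR 4.0.16 under R 4.3.3 (filterByExpr, TMM, quasi-likelihood F-test, no covariate) over the whole table, with Benjamini-Hochberg adjustment over 16652 genes and a threshold of 0.05. CPM used TMM-scaled library sizes. Each standard error is the log2 fold change divided by the square root of F. The fit was tested on simulated data. Ratios of summed counts carry exact 95% intervals, and these and the floor of 3 counts cover counting error only. No libraries of a group agreed within sampling noise, so all 6 were kept.

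Positions, exon overlaps, GC content, 50-base words and coding sequences came from GENCODE release 29 on hg38, matched by identifier for all 252 members. A finger was C, 2 to 4 residues, C, 12 residues, H, 3 to 5 residues, H. The KRAB A box was E, E or Q, W, 9 residues, L or M, Y, 2 residues, V. Alternatives were DESeq2 1.42.0, limma-voom (limma 3.58.1), other scalings, filters and thresholds, a replicate block, each library left out, genes of chromosome 2 left out and, added after the data were seen, GC offsets. The members and lists were chosen with earlier results of these data known. Named genes were RAVER1, every member crossing 0.5 CPM, the 10 largest called rises and falls (9 falls existed), the 5 highest levels, a fixed list of members with known roles, and of the corepressor list TRIM28, SETDB1 and up to 3 with the smallest adjusted p in each direction. One symbol on the fixed list, ZFP112, was not among the members.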

Additional observations from a re-analysis of the deposited data

How the results depend on the processing

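The count of higher members was 43 to 62 and of lower members 6 to 9 when 1 library was left out, 54 and 10 with RLE scaling, 48 and 11 with upper-quartile scaling, 55 and 9 with no filter, 50 and 8 with at least 1 CPM in 3 libraries, 44 and 8 with DESeq2, 52 and 9 with limma-voom and 55 and 8 without genes of chromosome 2. Tested against a 1.5-fold change, 13 members were higher and 1 lower, with 575 and 664 over all genes and 0 and 0 of the corepressor list. At an adjusted p under 0.01, 38 members were higher and 5 lower, and 1 corepressor gene was higher and 6 were lower. Higher and lower corepressor genes numbered 7 and 10 with the replicate block, 4 and 11 with GC offsets, and 1 to 7 and 6 to 8 without 1 library. With a threshold of 1 CPM, 163 members were expressed and 11 crossed it, 10 in knockout cells and 1 (ZNF554) in parental cells, and with 0.25 CPM 177 were expressed and 6 crossed, 5 in knockout cells and 1 (ZNF671) in parental cells. ZNF146 ran from -0.1326 to 0.0149 when 1 library was left out, and it changed sign without knockout replicate 1 (0.0149) and without parental replicate 2 (0.0003). The cause of these changes was not tested. With the replicate number as a block, 57 members were higher and 13 lower. The deviations of same-numbered libraries correlated at 0.129, 0.029 and 0.014, and those of differently numbered libraries at -0.093 to 0.067. With 3 libraries per group, these values cannot decide whether the numbers pair the samples. Depth limits the 78 untested members.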
